A study of Mus musculus with 20 samples.

Results

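Levels of 9 genes of amyloid precursor processing were examined in brain RNA-seq libraries of WT and miR-324-null mice: *App*, *Aplp1*, *Aplp2*, *Adam10*, *Bace1*, *Psen2*, *Ncstn*, *Apoe* and *Clu*. They were listed by name, with no threshold on their values but with earlier results of these data known, and make up 9 of the 35580 genes and 74 of the 113580 transcripts that could be named in the tables. The miR-324-null mice carry a CRISPR/Cas9 deletion of the miR-324 locus in every cell from conception, and the WT mice are a control line from the same crosses. The founders had a mixed C57BL/6 and CBA/Ca background, which was then crossed back to C57BL/6J, the strain given for all mice. All mice were males of 13.5 months with no treatment. The 20 libraries were 5 of WT hippocampus, 5 of miR-324-null hippocampus, 5 of WT neocortex and 5 of miR-324-null neocortex, each made from whole dissected tissue. The deleted miRNA is not measured by libraries of polyadenylated RNA, so the genotype labels were not checked against it.

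*App* encodes the amyloid precursor protein, a membrane protein of neurons and other cells, and *Aplp1* and *Aplp2* encode its paralogs. The precursor is cut either by an alpha-secretase such as ADAM10, within the amyloid-beta sequence, or by the beta-secretase BACE1 and then by gamma-secretase, whose subunits include presenilin 2 (*Psen2*) and nicastrin (*Ncstn*), which releases the amyloid-beta peptide. Apolipoprotein E and clusterin (*Apoe*, *Clu*) are lipid carriers made largely by astrocytes that bind amyloid-beta outside the cell.

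MicroRNAs pair with target mRNAs mainly through bases 2 to 8, the seed, so the seeds of both arms of miR-324 are shown with the matches found in these genes. The mature sequences are from RefSeq (GRCm38.p6), with the seed in capitals, and lie on the plus strand of chromosome 11, the 5p arm at chr11:70012060-70012082 and the 3p arm at chr11:70012095-70012114.
miR-324-5p: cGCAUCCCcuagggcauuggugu
miR-324-3p: cCACUGCCccaggugcugcu
A match to a seed is its reverse complement on the strand of the mRNA, GGGATGC for the 5p arm and GGCAGTG for the 3p arm. In the longest annotated 3′UTR of each gene (GENCODE M21, GRCm38), 2 of the 9 genes held 1 match to the 5p seed, *App* and *Psen2*. The capitals below mark the matching 7 bases, printed 5′ to 3′ on the minus strand.
*App*, chr16:84954903-84954923: tcgatggGGGATGCttcttgt
*Psen2*, chr1:180227312-180227332: cgccggtGGGATGCttggatg
The *App* match lay 415 bases into the 3′UTR and was shared by all 6 protein-coding *App* transcripts, and the *Psen2* match lay 248 bases in and was held by 3 *Psen2* transcripts. The 3p letters were not in the longest 3′UTR of any of the 9 genes, though another reported form of the 3p arm, whose seed differs, was not searched. Other 3′UTRs of a gene were not searched for further matches. The longest was that of Aplp2-209 for *Aplp2*, with 0% of its TPM, and of Apoe-206 for *Apoe*, with 2.62%. For comparison, 8.9% of 14744 expressed genes held the 5p letters and 15.9% the 3p letters in their longest 3′UTR. Among genes with a 3′UTR of 0.8 to 1.25 times the length the 5p letters occurred in 3.5% for the length of *Psen2* (569 bases). For *App* they occurred in 5.1% at the 888 bases of App-201, the form with most *App* TPM, and in 23.7% at the 5646 bases of App-206, a minor form.

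The alternative exon on which the *App* transcripts are compared later encodes a Kunitz protease-inhibitor domain. It is exon 7 of App-206, 168 bases at chr16:85043576-85043743 on the minus strand, followed by exon 8 of 57 bases. The form typical of neurons, App-201, encodes 695 residues and skips both exons, and the junction after exon 6 tells it from the forms with the Kunitz exon. Each junction is printed 5′ to 3′ on the minus strand with the bases of the exon that follows exon 6 in capitals.
Exon 6 joined past the Kunitz exon (App-201): aggaggtggtccgagTTCCCACGACAGCAG
Exon 6 joined to the Kunitz exon (App-202, App-206): aggaggtggtccgagAGGTGTGCTCTGAAC
App-202 has the Kunitz exon without exon 8 (751 residues), App-203 has both but lacks exon 15 (752 residues), and App-206 has all of them (770 residues) with the long 3′UTR. App-210 is a 726-base processed transcript with no reading frame, of which 587 bases are also in App-201 and 139 are not.

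**Figure D1:**
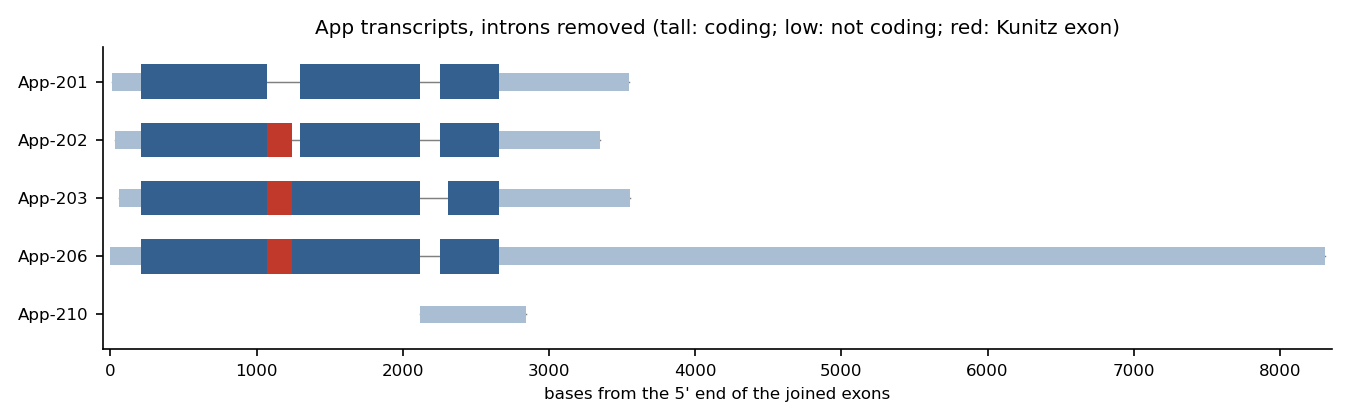
Map of the 5 *App* transcripts that held at least 1% of *App* TPM, with introns removed, in bases from the 5′ end of their joined exons. Tall boxes are coding, low boxes are not coding, and the Kunitz exon is red. App-201 skips the Kunitz exon, App-206 alone has the long 3′UTR, and App-210 covers 726 bases near the 3′ end of the coding sequence.

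Depth, as the sum of estimated counts, lay between 12752439 and 19617765 per library. The tissue labels were checked on markers: the summed level of 5 hippocampal markers lay between 107 and 207 TPM (abundance corrected for transcript length and depth) across hippocampus libraries and between 35.7 and 96.5 across neocortex libraries, and that of 6 neocortical markers between 94.9 and 153 against 334 to 585. The 3 libraries that follow stood apart in 6 choroid plexus markers: WT hippocampus replicate 3 summed to 6941 TPM, miR-324-null hippocampus replicate 5 to 5998 and miR-324-null neocortex replicate 2 to 1285, against 17.7 to 180 in the 17 others. The choroid plexus lies beside the hippocampus, and results were recomputed without these libraries.

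Levels of different genes were compared as TPM, which divides by transcript length. *Apoe* had the highest level of the 9 in every library, between 2076 and 3432 TPM, followed by *App* between 951 and 1203. *Aplp1* (809 to 934 TPM) and *Clu* (697 to 1037) overlapped, with *Aplp1* the higher in 14 of 20 libraries. *Aplp2* came next at 285 to 420 TPM. The secretase genes were lower still, with *Aplp2* at 6.26 to 9.54 times the level of *Bace1* in a library. *Bace1* (39.8 to 59.3 TPM) and *Ncstn* (35.5 to 51.3) overlapped, *Bace1* being the higher in 16 of 20 libraries. *Adam10* lay between 23.0 and 32.1 TPM and *Psen2* between 13.6 and 35.3, with *Adam10* the higher in 18 of 20. The other neighbours in this order did not overlap over the 20 libraries. This order is of TPM summed over all transcripts of a gene, those not protein-coding included. In WT hippocampus these held 26.2% of *App* TPM on average against 0.172% of *Aplp1*. They held 56.0% of *Bace1* against 31.0% of *Ncstn* and 1.41% of *Adam10*. The order over coding transcripts alone was not computed and can differ. *Psen2* rested on the fewest reads, 172 to 315 estimated counts a library against 19016 to 35535 for *App*.

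**Figure D2:**
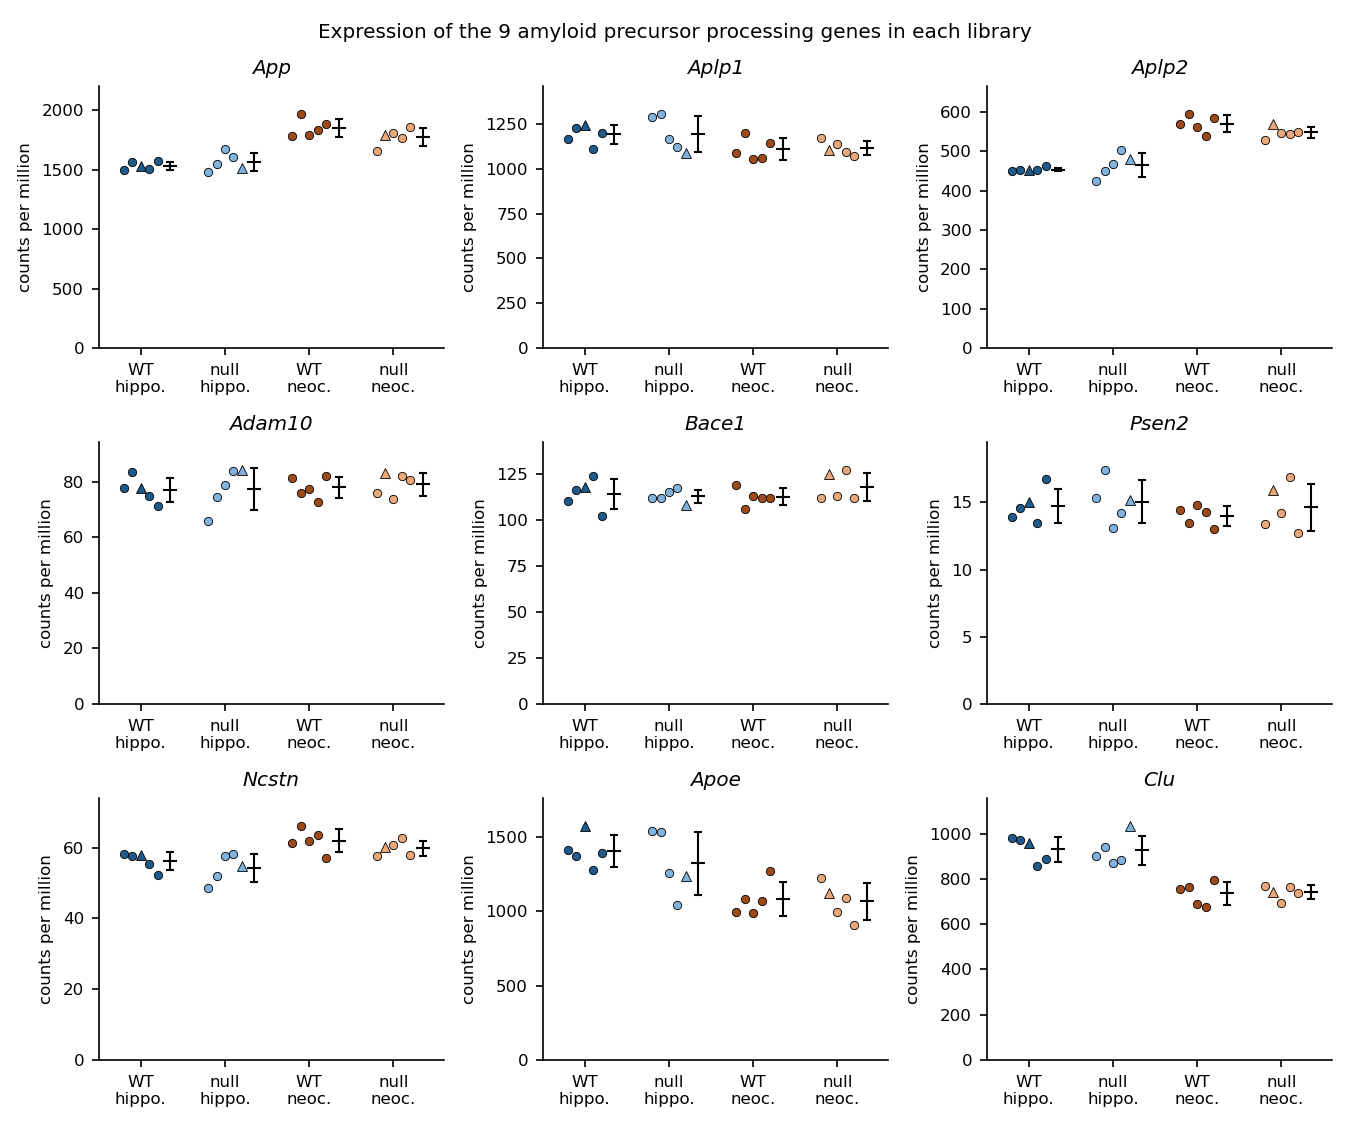
CPM (counts scaled to library size by TMM) of the 9 genes in each library, with 5 libraries a group. Points are libraries, triangles are the 3 libraries with high choroid plexus markers, and the bar beside each group is the mean with the SD. The WT and miR-324-null points of each tissue overlap in all 9 panels, while *App* and *Aplp2* sit lower and *Clu* higher in the hippocampus than in the neocortex of WT mice.

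The first question was whether loss of miR-324 changed these genes. None of the 9 was DE between miR-324-null and WT mice in either tissue (edgeR quasi-likelihood test, Benjamini-Hochberg adjusted p of at most 0.05 over all genes). Over all genes 17 of 14796 (0.115%) were DE in hippocampus tissue and 47 of 14930 (0.315%) in neocortex tissue, so a list of this size would hold none at the background rate. Without adjustment 0 of the 9 had a p of at most 0.05, the smallest being 0.401 (hippocampus) and 0.159 (neocortex), where 11.1% and 12.2% of all genes did, so that 0 of 9 is near the background. DESeq2 on the same counts called 0 in each tissue. With an offset for the mean transcript length, however, DESeq2 called *Aplp2* lower in miR-324-null neocortex (-0.14, adjusted p = 0.0323, against -0.05 in the main test), while edgeR with that offset did not (-0.14, adjusted p = 0.271). Without miR-324-null neocortex replicate 5 the neocortex count rose to 566 genes, and none of the 9 was among them. The median log2 fold change of the 9 was 0.003 for the hippocampus and 0.015 for the neocortex, against 0.001 and 0.005 over all genes.

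*App*, which carries a match to the 5p seed, had 1495, 1566, 1527, 1502 and 1571 CPM (counts scaled to library size, normalised between libraries by TMM) in WT hippocampus and 1484, 1545, 1675, 1604 and 1511 in miR-324-null hippocampus. Of the miR-324-null libraries 2 lay above all WT libraries, 1 below and 2 among them, and the log2 fold change was 0.03 (95% interval -0.08 to 0.13, adjusted p = 0.866, edgeR). In the neocortex *App* had 1786, 1968, 1791, 1835 and 1886 CPM in WT and 1658, 1796, 1805, 1764 and 1861 in miR-324-null mice. The lowest library was a miR-324-null one and the highest a WT one, with a log2 fold change of -0.05 (-0.15 to 0.04, adjusted p = 0.691, edgeR). With the length offset *App* was at 0.06 in the hippocampus (adjusted p = 0.767, edgeR) and -0.10 in the neocortex (adjusted p = 0.480, edgeR). *Psen2*, the other gene with a match, ran from 13.5 to 16.7 CPM over the 5 WT libraries of the hippocampus and from 13.1 to 17.4 over the 5 miR-324-null ones, with 13.0 to 14.8 against 12.7 to 16.9 for the neocortex. Its log2 fold changes were 0.03 (-0.17 to 0.22) and 0.07 (-0.12 to 0.26), and the groups overlapped in both tissues. The hippocampus value for *Psen2* depended on transcript length: with the length offset it was 0.53 in edgeR (adjusted p = 0.413) and in DESeq2 (adjusted p = 0.177), outside the interval given. In TPM *Psen2* was at 18.4 ± 3.88 in WT hippocampus and 26.4 ± 5.66 in miR-324-null hippocampus, with overlapping groups. The transcript Psen2-209 held 7.43% of *Psen2* TPM on average in WT hippocampus and 32.6% in miR-324-null hippocampus. Over all libraries it took only 0.587% of *Psen2* estimated counts on average. The part of Psen2-209 in the TPM and length-offset values was not tested.

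The groups overlapped in both tissues for the other 7 genes as well. *Aplp1* differed by 0.00 (-0.13 to 0.14) in hippocampus and 0.02 (-0.09 to 0.12) in neocortex on the log2 scale, and *Aplp2* by 0.04 (-0.08 to 0.15) and -0.05 (-0.14 to 0.04). The beta-secretase gene *Bace1* differed by -0.02 (-0.14 to 0.10) and 0.08 (-0.03 to 0.19), and the alpha-secretase gene *Adam10* by 0.01 (-0.15 to 0.16) and 0.03 (-0.08 to 0.14). *Ncstn* was at -0.05 (-0.18 to 0.08) and -0.04 (-0.15 to 0.06). The widest interval of the 9 was that of *Apoe* in the hippocampus, -0.09 (-0.31 to 0.13), where the miR-324-null libraries spread from 1041 to 1542 CPM and the WT libraries from 1275 to 1572. *Clu* differed by -0.01 (-0.14 to 0.13) and 0.02 (-0.10 to 0.13).

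A genotype difference that itself differed between the tissues was tested as an interaction over all 20 libraries. None of the 9 was called, where 3 of 15391 genes were over all (0.0195%), and 0 of the 9 had an unadjusted p of at most 0.05, against 5.57% of all genes. DESeq2 called none of the 9 either. The interaction terms lay between -0.09 for *Bace1* and 0.09 for *App* and *Aplp2* on the log2 scale. With the length offset the term for *Psen2* was 0.60 (adjusted p = 0.852, edgeR). Those for *App*, *Aplp2* and *Bace1* were then 0.17, 0.21 and -0.14 (adjusted p = 0.845, 0.779 and 0.911, edgeR).

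**Figure D3:**
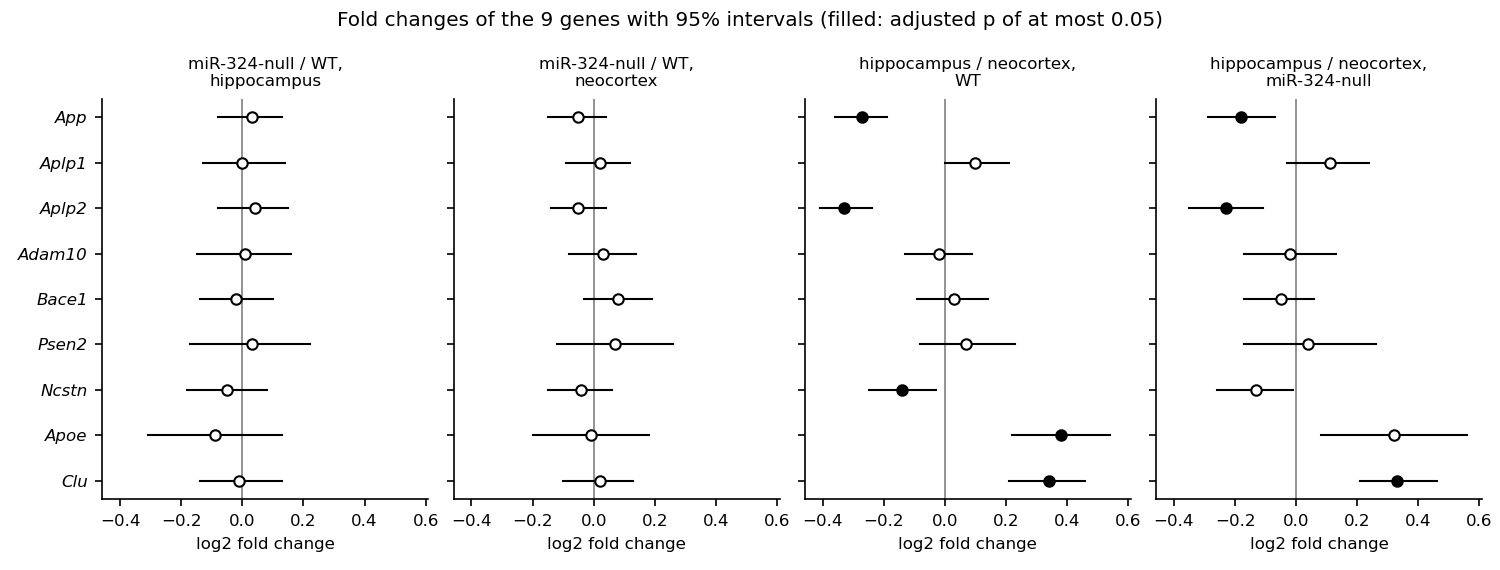
Log2 fold changes of the 9 genes with 95% intervals in the 4 comparisons, from 5 against 5 libraries each. Filled points passed an adjusted p of 0.05. No point is filled in the panels of miR-324-null against WT, and *App*, *Aplp2* and *Clu* are filled in both panels of hippocampus against neocortex.

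The second question was how the genes differ between the tissues. In WT mice *App* and *Aplp2* were lower and *Apoe* and *Clu* higher in the hippocampus than in the neocortex, by a log2 fold change of -0.27 to -0.33 and 0.34 to 0.38. Of the 9 genes, 3 fell (the third was *Ncstn*) and 2 rose, against a background of 36.1% of 14894 genes called, 18.0% lower and 18.1% higher (with a list this short, these counts say nothing particular of it). In miR-324-null mice 2 of the 9 were called lower, *App* and *Aplp2*, and 1 higher, *Clu*, where 27.4% of 15033 genes were called, 13.6% lower and 13.8% higher. Hippocampal markers were at 96.5, 71.3, 78.9, 81.1 and 39.4 TPM in miR-324-null neocortex against 35.7 to 53.8 in WT neocortex. Neocortical markers averaged 426 against 492 TPM there, and 6 markers of striatal projection neurons 303 against 173. The part of these shifts in the tissue differences of miR-324-null mice, or in the neocortex comparison of miR-324-null with WT mice above, was not tested. Without the libraries high in choroid plexus markers, an alternative chosen after seeing the data, 4 genes were called in WT mice and 2 in miR-324-null mice. Whether hippocampus and neocortex libraries came from the same mice is not given by the labels.

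*App* was at 1532 ± 35.1 CPM (SD, n = 5) in WT hippocampus and 1853 ± 76.1 in WT neocortex, with no overlap between the libraries. The log2 fold change was -0.27 ± 0.04 (SE, adjusted p = 1.36e-04, edgeR), or 0.827-fold. In miR-324-null mice the means were 1564 ± 76.7 and 1777 ± 75.2 CPM, and the highest hippocampus library, at 1675, exceeded the lowest neocortex library, at 1658. The log2 fold change there was -0.18 ± 0.05 (adjusted p = 0.0213, edgeR). That call was lost without the choroid plexus libraries (-0.16, adjusted p = 0.0928), without miR-324-null neocortex replicate 3 (-0.17, 0.0519) and with no filter on low counts (-0.19, 0.0567). With an offset for the mean transcript length it came to -0.02 (adjusted p = 0.836), while the WT difference kept its call under that offset at -0.19 (adjusted p = 0.00319).

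*Aplp2*, whose protein is cut by the same secretases, differed in the same direction. WT hippocampus had 450, 453, 453, 452 and 462 CPM and WT neocortex 571, 595, 561, 539 and 584. All 5 hippocampus libraries lay below all 5 neocortex libraries, at a log2 fold change of -0.33 ± 0.04 (adjusted p = 2.04e-05, edgeR). The miR-324-null libraries did not overlap either, at 465 ± 30.6 against 548 ± 14.2 CPM and -0.23 ± 0.06 (adjusted p = 0.00845, edgeR). *Aplp1* did not pass the test in WT (0.10 ± 0.05, adjusted p = 0.120) or miR-324-null mice (0.11 ± 0.06, adjusted p = 0.220), both edgeR. Without WT neocortex replicate 2 it passed in WT mice at 0.13 (adjusted p = 0.0493). The summed level of 6 neuronal markers was lower in the hippocampus, 3484 to 4102 TPM against 4184 to 5177 over both genotypes. Its part in the *App* and *Aplp2* differences was not tested, and fewer cells of a type and less RNA per cell cannot be told apart in whole tissue.

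*Apoe* had 1414, 1372, 1572, 1275 and 1389 CPM in WT hippocampus and 992, 1081, 989, 1067 and 1269 in WT neocortex. The lowest hippocampus library lay just above the highest neocortex library, and the log2 fold change was 0.38 ± 0.07 (adjusted p = 0.00109, edgeR). In miR-324-null hippocampus the libraries had 1542, 1530, 1257, 1041 and 1237 CPM, and in miR-324-null neocortex 1226, 1121, 993, 1088 and 904. The high hippocampus libraries, replicates 1 and 2, were also low in hippocampal markers (107 and 116 TPM against 188 to 196 in the other 3). The groups overlapped, and at 0.32 ± 0.11 the difference just missed the threshold (adjusted p = 0.0502, edgeR). It passed with DESeq2 (0.0267), with all 20 libraries in 1 fit (0.0212), with the replicate number as a block (0.0208), without miR-324-null hippocampus replicate 4 (0.0140) and without miR-324-null neocortex replicate 1 (0.0331). The *Apoe* tissue difference was not shown to differ between genotypes (interaction -0.07, adjusted p = 0.988, edgeR).

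*Clu* had 979, 973, 957, 856 and 887 CPM in WT hippocampus and 756, 766, 687, 677 and 793 in WT neocortex. The groups did not overlap, at 0.34 ± 0.06 (adjusted p = 4.11e-04, edgeR). Nor did they in miR-324-null mice, at 926 ± 64.8 against 741 ± 30.1 CPM and 0.33 ± 0.06 (adjusted p = 9.84e-04, edgeR). *Clu* and *Aplp2* in both genotypes, and *App* and *Apoe* in WT mice, kept their calls under all 19 alternatives of each comparison. The summed level of 6 astrocyte markers was also higher in the hippocampus, 632 to 803 TPM against 408 to 625, and its part in the *Apoe* and *Clu* differences was not tested.

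Among the secretase genes, *Ncstn* was called in WT mice at 56.3 ± 2.50 against 62.0 ± 3.26 CPM, a log2 fold change of -0.14 ± 0.05 (adjusted p = 0.0434, edgeR). This call did not hold with no filter on low counts (0.0806) or without any single library other than WT neocortex replicate 5, where the adjusted p ran from 0.0506 to 0.117. With the length offset it was stronger, at -0.23 in edgeR (adjusted p = 0.00656) and in DESeq2 (adjusted p = 5.68e-04). In miR-324-null mice *Ncstn* had 54.3 ± 3.99 against 59.9 ± 2.16 CPM and was not called (-0.13 ± 0.06, adjusted p = 0.110, edgeR), but was with all 20 libraries in 1 fit (-0.14, adjusted p = 0.0429). *Bace1* differed by 0.03 (95% interval -0.09 to 0.14) in WT and -0.05 (-0.17 to 0.06) in miR-324-null mice, *Adam10* by -0.02 (-0.13 to 0.09) and -0.02 (-0.17 to 0.13), and *Psen2* by 0.07 (-0.08 to 0.23) and 0.04 (-0.17 to 0.26). With the length offset *Psen2* was called in miR-324-null mice at 0.60 (adjusted p = 0.0131, edgeR). The share of *Psen2* TPM from single transcripts varied widely between libraries: Psen2-209 ran from 0% to 57.6% and Psen2-205 from 4.93e-04% to 63.9%. Psen2-209 averaged 32.6% in miR-324-null hippocampus and 10.8% in miR-324-null neocortex, with 0.587% of *Psen2* estimated counts over all libraries. Its part in the call with the length offset was not tested.

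Other genes of the pathway were counted in 3 lists. None of the 39 was called between genotypes in either tissue by edgeR. Without adjustment 6 of the 39 (15.4%) had a p of at most 0.05 in hippocampus tissue, where 11.1% of all genes did, and 8 (20.5%) in neocortex tissue, against 12.2%. Of these, *Ece1* and *Ide* had such a p in both tissues and were picked out after their values were seen. *Ece1*, an endothelin-converting enzyme that can cleave amyloid-beta, had 43.0 ± 1.43 CPM in miR-324-null and 48.2 ± 2.36 in WT hippocampus (-0.16, unadjusted p = 0.00802, adjusted p = 0.313, edgeR), and 55.7 ± 2.45 against 63.3 ± 4.86 for the neocortex (-0.18, 0.00908 and 0.250). DESeq2 with the length offset called *Ece1* lower in miR-324-null neocortex (-0.21, adjusted p = 0.0261) but not in the hippocampus (-0.20, 0.111). The authors' own DESeq2 results list *Ece1* as DE in both tissues, lower in miR-324-null mice. *Ide*, the insulin-degrading enzyme gene, had 41.7, 32.2, 30.4, 34.0 and 43.3 CPM in WT hippocampus and 20.9, 20.8, 22.5, 36.1 and 36.1 in miR-324-null hippocampus (-0.41, unadjusted p = 0.0370, adjusted p = 0.416, edgeR). It had 47.6, 33.4, 36.7, 34.4 and 49.7 CPM in WT neocortex and 20.9, 23.5, 22.2, 34.8 and 35.7 in miR-324-null neocortex (-0.55, 0.00553 and 0.213). In both tissues miR-324-null replicates 4 and 5 lay inside the WT range and replicates 1 to 3 below it. *Ide* levels were alike in the hippocampus and neocortex libraries of the same number, so the tissues are not independent evidence of its direction. Without miR-324-null neocortex replicate 5, *Ide* (-0.66, adjusted p = 0.0423) and *Ece2* (0.57, adjusted p = 0.0438) were called in the neocortex, both edgeR. That library stood apart in the 5 hippocampal markers, at 39.4 TPM against 71.3 to 96.5 in the rest of its group. WT neocortex had 35.7 to 53.8 TPM. *Ece2* had 20.8, 20.5, 25.2, 28.9 and 13.6 CPM in miR-324-null neocortex, the last in that library. The part of these markers in the 2 calls was not tested.

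Between tissues, 16 of the 39 (41.0%) were called in WT mice and 10 (25.6%) in miR-324-null mice, near the 36.1% and 27.4% of all genes. In WT mice, of 8 secretases and subunits other than those above, 1 rose and 2 fell in the hippocampus, with a list median log2 fold change of -0.023 (-0.001 over all genes). *Adam9*, another metalloprotease of the ADAM family, was at 49.0 ± 2.67 against 62.7 ± 1.88 CPM (-0.36, adjusted p = 5.34e-05, edgeR), and in miR-324-null mice at 49.1 ± 4.36 against 62.1 ± 4.61 (-0.33, adjusted p = 0.00432). Of 16 adaptors, sorting receptors and secretase modulators, 4 rose and 2 fell in WT mice (median -0.064). *Itm2b* and *Itm2c*, membrane proteins of the BRICHOS family that bind the precursor, rose by 0.34 and 0.25 in WT mice and by 0.34 and 0.25 in miR-324-null mice. The adaptor *Apbb1*, which binds the cytoplasmic tail of the precursor, fell by 0.29 on the log2 scale in WT mice, and its relative *Apbb2* fell by 0.35 in WT and 0.27 in miR-324-null mice.

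Of 15 genes of amyloid-beta degradation and clearance, 5 rose and 2 fell in WT mice (median 0.032), and 2 rose and 3 fell in miR-324-null mice (median -0.001, with 0.008 over all genes). *Lpl*, the lipoprotein lipase gene, had the smallest p of the 39 in both genotypes, at 36.1 against 17.8 CPM with no overlap in WT mice (1.03, adjusted p = 2.80e-07, edgeR) and 39.8 ± 7.58 against 19.3 ± 2.36 in miR-324-null mice (1.05, adjusted p = 6.27e-05). The 2 endothelin-converting enzyme genes went opposite ways in WT mice: *Ece1* was at 48.2 ± 2.36 against 63.3 ± 4.86 CPM (-0.39, adjusted p = 1.55e-04), and *Ece2* at 25.0 ± 2.77 against 16.2 ± 3.10 (0.62, adjusted p = 0.00105), both edgeR. *Ece1* fell in miR-324-null mice as well, by 0.37. The lipid transporter gene *Abca7* fell by 0.31 in WT (adjusted p = 0.00942) and by 0.48 in miR-324-null mice (adjusted p = 4.35e-04), both edgeR, and the endocytic receptor gene *Lrp1*, at 439 ± 41.6 against 531 ± 47.3 CPM, by 0.26 in miR-324-null mice. The *Lrp1* libraries of miR-324-null hippocampus had 397, 394, 477, 479 and 450 CPM, and the low ones, replicates 1 and 2, were also low in hippocampal markers (107 and 116 TPM against 188 to 196). The *Lrp1* call was lost without replicate 1 (-0.23, adjusted p = 0.0599) or replicate 2 (-0.23, 0.0627) of that group or without miR-324-null neocortex replicate 4 (-0.21, 0.0664), all edgeR. In that comparison the other 2 lists had 1 called higher and 1 lower of 8, and 2 higher and 1 lower of 16.

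The *App* estimates were then taken by transcript. Of the 11 *App* transcripts, 5 held at least 1% of *App* TPM on average, and the other 6 summed to between 0.0703% and 1.35% in a library. App-201 held most, between 57.2% and 78.3%. It made up 65.9% ± 1.99 (SD, n = 5) of *App* TPM in WT hippocampus, 65.7% ± 5.50 in miR-324-null hippocampus, 72.7% ± 2.25 in WT neocortex and 75.8% ± 1.92 in miR-324-null neocortex. App-210, the short transcript without a reading frame, was second with 25.9% ± 1.71, 27.7% ± 6.07, 20.7% ± 2.38 and 17.5% ± 1.94 in the same order. Since it is short, it took 4.91% of *App* estimated counts on average against 22.9% of *App* TPM. Its highest shares were in miR-324-null hippocampus replicates 1 and 2, at 36.9% and 30.8%, and the other 3 libraries of that group lay between 22.9% and 24.8%. The same 2 libraries had the lowest summed level of hippocampal markers of all 10 hippocampus libraries, 107 and 116 TPM against 188 to 196 in the other 3 of their group and 151 to 207 in WT, and the part of this in the App-210 share was not tested. App-206, App-203 and App-202 each held at most 5.40% in every library.

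**Figure D4:**
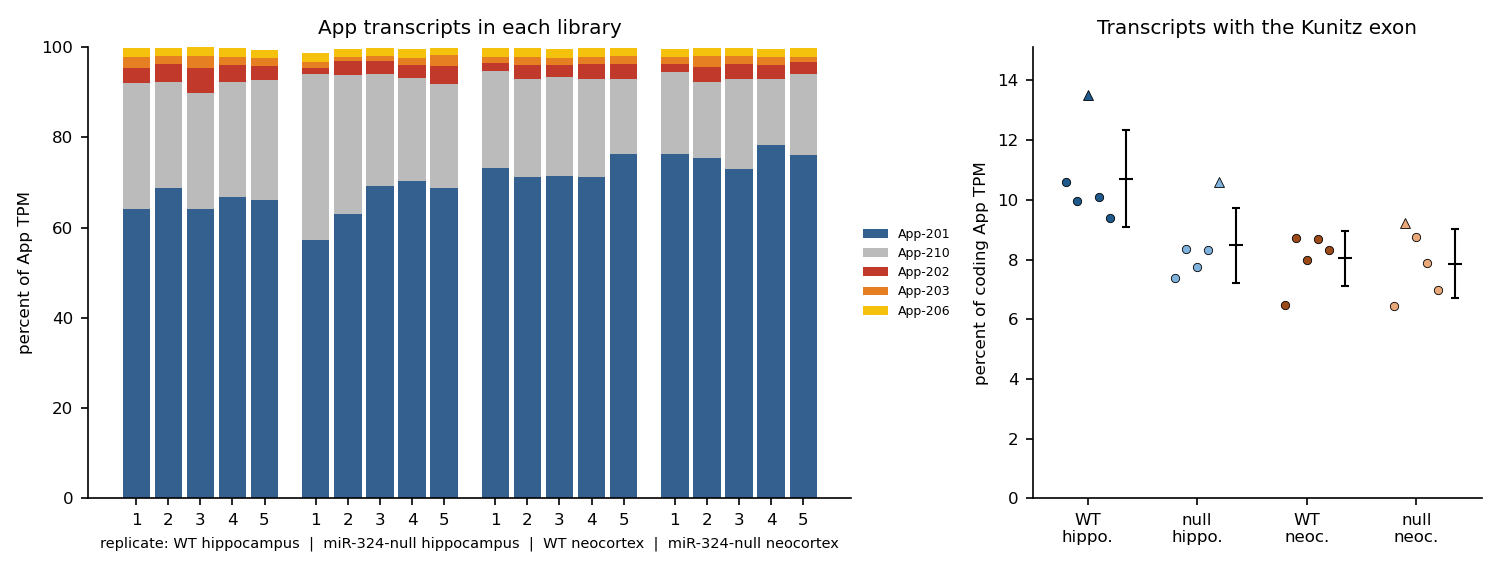
Left, the share of *App* TPM from the 5 transcripts in each of the 20 libraries, as stacked bars in percent. Right, the share of coding *App* TPM from transcripts with the Kunitz exon, where points are libraries, triangles mark the 3 libraries with high choroid plexus markers and bars are the mean with the SD. App-201 takes the largest part of every bar, and the triangles are the highest points of WT hippocampus (13.5%), miR-324-null hippocampus (10.6%) and miR-324-null neocortex (9.23%).

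No *App* transcript was DE by genotype (edgeR over all transcripts, 0.0291% of 34338 called for the hippocampus and 0.0249% of 36164 for the neocortex). None had an unadjusted p of at most 0.05 in the hippocampus, where 4.62% of all transcripts did. In the neocortex, with 6.26% of all transcripts, 2 did, App-210 (-0.33 ± 0.12, unadjusted p = 0.0173 and adjusted p = 0.728, edgeR) and App-206 (-0.14 ± 0.05, 0.0221 and 0.755). DESeq2 called no *App* transcript by genotype. Between tissues, App-201 was lower in the hippocampus of WT mice, at 661 ± 33.9 against 848 ± 7.49 TPM with no overlap (-0.32 ± 0.04, adjusted p = 5.60e-04, edgeR). It was called in miR-324-null mice too (-0.22 ± 0.05, adjusted p = 0.0406), but not without the choroid plexus libraries (0.178), nor without any single library other than miR-324-null hippocampus replicate 3 and miR-324-null neocortex replicate 1. With the replicate number as a block App-201 was not called in these mice either (-0.22, adjusted p = 0.0935, edgeR). App-206 was called lower in WT hippocampus (-0.21 ± 0.05, adjusted p = 0.0342, edgeR) and not without the choroid plexus library (0.0528) nor without 8 of the 10 libraries in turn. The replicate block also ended that call (-0.21, adjusted p = 0.149, edgeR). The background was 10.1% of 35272 transcripts in WT and 6.73% of 36337 in miR-324-null mice. App-202 and App-203, which carry the Kunitz exon, were not called in either genotype, at 0.29 ± 0.20 and 0.22 ± 0.16 in WT and -0.03 ± 0.26 and -0.28 ± 0.24 in miR-324-null mice. App-210 was higher in miR-324-null hippocampus but missed the threshold (0.66 ± 0.17, adjusted p = 0.0518, edgeR), with DESeq2 giving 0.00476. It passed without miR-324-null hippocampus replicate 4 or replicate 5 (0.73, adjusted p = 0.0447 each, edgeR).

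The share of coding *App* TPM from the 5 transcripts with the Kunitz exon was 10.6%, 9.97%, 13.5%, 10.1% and 9.39% in WT hippocampus and 6.48%, 8.72%, 7.98%, 8.68% and 8.33% in WT neocortex. Every hippocampus library lay above every neocortex library, and the means of 10.7% ± 1.63 and 8.04% ± 0.921 differed by 2.68 percentage points (p = 0.00794 by an exact permutation test on both sides, the lowest value possible with 5 against 5 libraries, and 0.0318 when adjusted over the 4 comparisons). Taken over all *App* transcripts, App-210 included, the WT shares were 7.91% ± 1.22 and 6.36% ± 0.767, which overlapped and differed by 1.55 points (exact permutation test, p = 0.0159). The summed neuronal markers were at 3484 to 3774 TPM in WT hippocampus and 4679 to 5177 in WT neocortex and the astrocyte markers at 632 to 803 against 462 to 520, and their part in this difference was not tested. In miR-324-null mice the hippocampus had 7.39%, 8.36%, 7.74%, 8.32% and 10.6% and the neocortex 6.45%, 9.23%, 8.74%, 7.89% and 6.99%. These groups overlapped and differed by 0.62 points (exact permutation test, two-sided, p = 0.460). Between genotypes the share was 2.23 points lower in miR-324-null hippocampus, with 1 miR-324-null library, replicate 5, inside the WT range (exact permutation test, two-sided, p = 0.0317). That difference did not pass after adjustment over the 4 comparisons (0.0634), nor without any single one of WT replicates 1 and 3 and miR-324-null replicates 1 to 4 (exact permutation test, p = 0.0635 each). In the neocortex the genotypes differed by 0.18 points with overlapping groups (exact permutation test, p = 0.802), and whether the genotype difference differed between tissues was not tested.

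In the hippocampus of each genotype, the 1 library high in choroid plexus markers also had the highest Kunitz-exon share. WT hippocampus replicate 3, at 6941 TPM of these markers, had a share of 13.5% where the other 4 libraries had 9.39% to 10.6%, and miR-324-null hippocampus replicate 5, at 5998 TPM, had 10.6% against 7.39% to 8.36%. With the libraries high in these markers left out, the 4 WT libraries (9.39% to 10.6%) and the 4 miR-324-null libraries (7.39% to 8.36%) of the hippocampus no longer overlapped (difference -2.06 points, p = 0.0286 by an exact permutation test, the lowest value possible with 4 against 4). The WT tissue difference was then 1.97 points (exact permutation test, p = 0.0159). The summed level of 6 endothelial and mural markers moved with the genotype difference: it was 152 to 160 TPM in WT hippocampus and 137, 131, 137, 133 and 162 in miR-324-null hippocampus, where replicate 5 alone reached the WT range. Leaving out the libraries high in choroid plexus markers did not remove that endothelial and mural difference. Other markers shifted as well. The 6 neuronal markers summed to 3698, 3889, 4102, 4014 and 3593 TPM over miR-324-null hippocampus replicates 1 to 5. Replicates 1 and 5 lay inside the WT hippocampus range of 3484 to 3774, and the rest lay above it. The 5 meningeal fibroblast markers averaged 72.2 TPM in the miR-324-null group against 43.2 in the WT group, with overlapping libraries. The part of these marker levels in the Kunitz-exon share was not tested. App-206 alone has the long 3′UTR, whose reads cannot come from another coding form in the annotation, so the share was also taken without it. It was then 8.41% ± 1.67 in WT hippocampus, 6.13% ± 1.60 in miR-324-null hippocampus, 5.77% ± 0.987 in WT neocortex and 5.73% ± 1.25 in miR-324-null neocortex. The WT tissue difference was 2.64 points (exact permutation test, p = 0.00794) and the genotype difference in the hippocampus -2.28 (exact permutation test, p = 0.0635). Both alternatives were chosen after seeing the data.

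Genes whose levels followed those of *App*, *Apoe* and *Clu* most closely were looked up among 10103 others with a mean of at least 10 CPM, by Pearson's r of log2 CPM over the 20 libraries after each group's mean was subtracted. For *App* these were *Paqr7* (0.82), *Myo18a* (0.80) and *Medag* (0.79). For *Apoe* they were *Tbkbp1* (0.92), *Nrarp* (0.85) and *Ehmt2* (0.85), and for *Clu* they were *Laptm4a* (0.85), *Ube2e3* (0.84) and *Yap1* (0.82). The libraries share depth and base composition within a library, and the top of so many genes is high by selection, so these values are a description.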

How the data were processed

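The authors ran kallisto on stranded mRNA libraries against Ensembl transcripts of the mouse (GRCm38), and the deposited tables give the estimated counts, the TPM and the effective length of each transcript. The submitters' processing notes name kallisto, DESeq2 and the human build GRCh38, while every transcript identifier is a mouse one. A strand setting for kallisto is not given in the sources used here, and the tables hold no error of the estimates, so the uncertainty of dividing reads between transcripts is not in the intervals.

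Identifiers were found in GENCODE M21 (GRCm38) for 113580 of 115270 transcripts. The rest held at most 0.556% of a library's counts and was left out. Estimated counts were summed per gene, rounded, filtered with filterByExpr, scaled with TMM and tested with edgeR 4.0.16 (quasi-likelihood, Benjamini-Hochberg over all genes or transcripts) in R 4.3.3 on the 10 libraries of a comparison. Alternatives used DESeq2 1.42.0, an offset for the mean transcript length and the settings named in the closing section. The fits were tested on simulated data. Exact permutation tests used SciPy 1.17.1 in Python 3.11.15.

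The 9 genes, every *App* transcript with a mean share of at least 1%, and up to 8 called genes a comparison from the pathway lists, by smallest p, are named. These genes, lists and rules were chosen with earlier results of these data known. Nothing in the labels says that replicates share or do not share a dissection day, and p-values measure the spread between these libraries.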

Additional observations from a re-analysis of the deposited data

Results flagged for a closer look

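Of 60 groups of 5 libraries checked for a library far from the rest, over the 9 genes, the 5 *App* transcripts and the Kunitz-exon share, 2 held one by Dixon's test, where chance flags about 1 in 20. The *Aplp2* level of WT hippocampus replicate 5 was 462 CPM with the other 4 libraries between 450 and 453, a gap that stands out because those 4 were so close. The share of *App* TPM from App-210 was 16.4% in WT neocortex replicate 5, below the 21.4% to 21.9% of the other 4 libraries.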

How the results depend on the processing

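The 45 log2 fold changes of the 9 genes (5 comparisons) were recomputed 918 times under other settings: 814 kept direction and side of the threshold, 16 lost the call, 10 gained it and 78 changed sign, none of the sign changes in a called value. The cause of a change was not tested. The counts of the 9 genes called stayed at 0 between genotypes, except for 1 (*Aplp2*) with the length offset in DESeq2 in the neocortex, and were 4 to 5 in WT and 2 to 5 in miR-324-null mice between tissues, the 5 with all 20 libraries in 1 fit. Depth limits *Psen2* most, and transcript estimates have no error of their own in the tables.

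The labels do not say what a replicate number marks, and same-number libraries did not all deviate together, so they were not treated as pairs. The correlation of deviations from the group means was above 0.1 in 1 of 5 pairs between genotypes in each tissue, in 1 of 5 between WT tissues and in 4 of 5 (0.01 to 0.38) between miR-324-null tissues. A library correlated best with its own number in 0, 1, 2 and 4 of 5 in that order, which is a hint from the data and not from the design. Single genes could be alike by number between WT tissues too, such as *Psen2* at 14.9, 15.3, 21.9, 23.3 and 16.6 TPM in WT hippocampus and 17.0, 13.6, 23.6, 24.4 and 15.6 in WT neocortex. With the replicate block, 4 genes were called by genotype in the hippocampus, 30 in the neocortex and 0 in the interaction, 1 *App* transcript between tissues in WT (App-206 came to an adjusted p of 0.149, edgeR) and 0 in miR-324-null mice (App-201 came to 0.0935, edgeR), and the Kunitz-exon share differed by -2.23 points between genotypes in the hippocampus (p = 0.125, exact) and 2.68 between WT tissues (p = 0.0625, exact, the smallest that 5 pairs can give, so neither test could pass 0.05 and they say nothing of stability). The members' calls that changed under the block were those of *Apoe* given above.

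Genes called by genotype numbered 17 in the hippocampus in the main analysis, against 139 with DESeq2, 85 with the length offset in DESeq2, 83 with all 20 libraries in 1 fit, 9 with at least 10 counts in every sample and 10 to 31 with a library left out. In the neocortex they numbered 47, against 240 with DESeq2, 184 and 30 with the length offset in DESeq2 and edgeR, 26 with at least 10 counts in every sample and 27 to 566 with a library left out. The interaction had 3, against 11 with DESeq2, 1 with the length offset, 1 without the choroid plexus libraries and 1 to 20 with a library left out. The 2 *App* transcripts called between WT tissues were 1 with no filter on low counts, 1 without the choroid plexus library and 1 to 2 with a library left out. The 1 in miR-324-null mice was 0 with no filter, 0 without the choroid plexus libraries, 2 with DESeq2 and 0 to 1 with a library left out. Without miR-324-null hippocampus replicate 4 or 5 the transcript called was App-210 in place of App-201.

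The Kunitz-exon share in the hippocampus differed between genotypes by -1.78 points over all *App* transcripts (p = 0.0635, exact) and by -2.28 without App-206 (p = 0.0635, exact), and by -2.76 to -1.53 with a library left out. Over all *App* transcripts the sign turned in the neocortex between genotypes (0.11) and in miR-324-null mice between tissues (-0.34), neither passing a test, and with a library left out the neocortex difference ran from -0.57 to 0.17.

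Some uncalled log2 fold changes changed sign, the largest move being that of *Psen2* in the interaction, from -0.04 to 0.60 with the length offset. By genotype in the hippocampus they were *Aplp1* 0.00 with no filter and with the length offset in edgeR and DESeq2 (-0.03 to 0.03 with a library left out), *Bace1* 0.01 without the choroid plexus libraries (-0.05 to 0.01), *Adam10* -0.02 with either length offset and without the choroid plexus libraries (-0.02 to 0.06), *Ncstn* 0.02 with either length offset, App-206 0.00 with no filter and 0.07 without the choroid plexus libraries (-0.05 to 0.06), and with a library left out *Psen2* (-0.03 to 0.07) and *Clu* (-0.05 to 0.01). In the neocortex they were *Psen2* -0.06 with either length offset, App-203 -0.13 without the choroid plexus library (-0.13 to 0.12), and with a library left out *Aplp1* (-0.01 to 0.04), *Apoe* (-0.07 to 0.05), *Clu* (-0.02 to 0.04) and App-202 (-0.25 to 0.01). Between tissues they were *Psen2* in WT mice at -0.01 and 0.00 with the length offset in edgeR and DESeq2, and with a library left out *Bace1* (0.00 to 0.07) and *Adam10* (-0.05 to 0.02) in WT and *Psen2* (-0.01 to 0.10), *Adam10* (-0.06 to 0.03) and App-202 (-0.16 to 0.16) in miR-324-null mice. In the interaction they were *Aplp1* 0.04, *Ncstn* 0.01 and *Apoe* 0.01 without the choroid plexus libraries, *Psen2* 0.60 and *Ncstn* 0.11 with the length offset, and with a library left out *Aplp1* (-0.04 to 0.02), *Psen2* (-0.09 to 0.02), *Adam10* (-0.05 to 0.03), *Ncstn* (-0.03 to 0.03) and *Clu* (-0.06 to 0.01).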

Other observations

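Transcripts not annotated as protein-coding took a different part of each gene's TPM. They held 56.0% ± 1.36 (SD, n = 5) of *Bace1* in WT hippocampus and 46.5% ± 5.70 of *Aplp2*, most of it from the retained-intron transcripts Bace1-204 and Aplp2-207, but only 0.172% ± 0.212 of *Aplp1* and 0.393% ± 0.205 of *Clu*. For *Aplp2* the share in miR-324-null mice was 48.5% ± 11.0 in the hippocampus, where it ran from 33.2% to 60.3%, and 38.1% ± 5.32 in the neocortex. The largest spread over libraries within a group was that of *Ncstn* in WT hippocampus, from 11.8% to 52.4%. Apoe-203 held 38.2% of *Apoe* TPM and 13.6% of its estimated counts on average, and Apoe-205 57.5% and 80.9%. Shares by TPM and by counts thus differed in size, and the estimates carry no error of their own in the deposited tables.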
